A study of Mus musculus with 2 samples.

Results

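The cytokine receptor genes Il23r, Il1r1, Il18r1, Il18rap and Il7r were followed in γδ T cells of the mouse lung. They are 5 of the 32285 genes in the files and were taken by gene symbol, without using any measured value, and all 5 had transcripts in both libraries. Cells came from uninfected mice of both sexes, aged 5 to 7 weeks, and were profiled in droplets, with 1 library for each of 2 groups. WT denotes lung γδ T cells sorted as negative for Vγ1 out of C57BL/6NCrl mice, for which no allele is listed. KO denotes Vγ1+ lung γδ T cells from mice of the strain B6.Cg-Tcrgtm1lku(B6.Vg4-/-Vg6-/-), in which the Vγ4 and Vγ6 chains are deleted. How many animals were pooled for each library is not given in the sources used here. Genotype, sort gate, strain and library differ together between the libraries and cannot be told apart, and no value below has a replicate.

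γδ T cells are lymphocytes whose antigen receptor pairs a γ with a δ chain, and in the mouse lung many of them are poised to make either IL-17 or interferon-γ. IL-23 and IL-1 are the cytokines known for driving IL-17 release from γδ T cells without engagement of the antigen receptor, IL-18 is known for driving interferon-γ with IL-12, and IL-7 sustains T cell survival. Il23r encodes the IL-23-specific chain that pairs with Il12rb1, and Il1r1 the IL-1-binding chain that pairs with Il1rap. Il18r1 encodes the ligand-binding chain and Il18rap the signalling partner of the IL-18 receptor, and Il7r the IL-7-specific chain that pairs with Il2rg. IL-23 and IL-7 receptors signal through Janus kinases and STAT proteins, and the IL-1 and IL-18 receptors through Myd88 and IRAK kinases.

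Il1r1, Il18r1 and Il18rap lie together on chromosome 1 (build GRCm38), in a cluster of IL-1 receptor family genes on the plus strand. Il1r1 (ENSMUSG00000026072) spans chr1:40225080-40317257, Il18r1 (ENSMUSG00000026070) chr1:40465552-40500854 and Il18rap (ENSMUSG00000026068) chr1:40515362-40551705, 327 kb from the first base to the last. Il18rap starts 14.5 kb after Il18r1 ends. Il18r1 starts 136 bases after the end of Il1rl1, which encodes the IL-33 receptor and is on the same strand, so reads near that border could be split between the 2 genes. Il23r (ENSMUSG00000049093) spans chr6:67422932-67491855 on the minus strand, 46.7 kb from Il12rb2, and Il7r (ENSMUSG00000003882) chr15:9505788-9530176 on the minus strand. All 5 are annotated as protein-coding, and UMI counts were given per gene, not per exon or UTR.

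Promoter windows of 3 receptors are shown. Across 33 groups of cells, described below, the transcripts of Il23r and Il1r1 followed each other (Pearson r 0.95). Those of Il18rap followed them less closely, at 0.52 and 0.44. Each runs 5′ to 3′ on the gene's strand from 250 bases before to 50 bases after the RefSeq start site of GRCm38.p6, and capitals mark AGGTCA, the nuclear receptor half-site, on either strand. The windows are chr6:67491806-67492105 (minus strand) for Il23r, chr1:40224830-40225129 (plus strand) for Il1r1 and chr1:40515112-40515411 (plus strand) for Il18rap.
Il23r: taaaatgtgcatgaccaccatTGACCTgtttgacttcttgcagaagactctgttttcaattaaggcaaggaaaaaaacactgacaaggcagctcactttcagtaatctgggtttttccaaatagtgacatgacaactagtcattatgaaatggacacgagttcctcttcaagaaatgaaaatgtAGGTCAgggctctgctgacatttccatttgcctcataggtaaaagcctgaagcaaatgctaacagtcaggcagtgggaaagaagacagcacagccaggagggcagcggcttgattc
Il1r1: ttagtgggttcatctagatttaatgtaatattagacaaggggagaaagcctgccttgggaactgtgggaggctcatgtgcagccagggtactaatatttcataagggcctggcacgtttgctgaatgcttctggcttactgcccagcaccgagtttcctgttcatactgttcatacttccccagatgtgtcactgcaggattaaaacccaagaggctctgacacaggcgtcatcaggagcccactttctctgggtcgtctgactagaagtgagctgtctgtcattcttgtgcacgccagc
Il18rap: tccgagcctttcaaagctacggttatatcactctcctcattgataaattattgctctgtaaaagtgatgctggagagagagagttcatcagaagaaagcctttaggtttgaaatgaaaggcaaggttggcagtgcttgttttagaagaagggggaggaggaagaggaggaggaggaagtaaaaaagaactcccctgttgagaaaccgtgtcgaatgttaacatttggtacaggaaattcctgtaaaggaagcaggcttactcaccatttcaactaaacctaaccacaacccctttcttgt
The Il23r window held 2 matches, beginning 229 and 66 bases before the start site, and 16.3% of 32851 RefSeq promoter windows of this length held at least 1. None of the other 7 windows of the 5 receptors held AGGTCA. The RUNX motif TGTGGT (16.8% of windows) was in the Il18rap and Il7r windows and in 1 of 3 Il18r1 windows. The STAT motif TTCNNNGAA (8.30%) was in the Il7r window and in 1 Il18r1 window. No receptor window held AGGTGT, the T-box letters found in 13.7% of windows, or TGANTCA, the AP-1 letters found in 7.81%. None held GATAAG either, the letters of GATA factors found in 7.44%. These motifs do not overlap each other in the windows shown, and a match describes letters, not binding.

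After the study's cell filter, whose limits are more than 200 but fewer than 4000 genes per cell and a mitochondrial share below 10%, 2505 of 2520 WT and 6634 of 6688 KO-labelled cells remained. A UMI is a molecular tag that counts 1 captured transcript, and median depth was 3288 and 3521 UMIs per cell. Transcripts of Cd3d, Cd3e, Cd3g or Trdc, which mark T cells, Trdc being the δ chain constant gene, were found in 90.9% and 96.5% of cells, and 23 barcodes occurred in both libraries. The deletion label was met by Tcrg-V6, with 2906 UMIs in WT and 0 of 6634 KO-labelled cells. It was not met by Tcrg-V4, which had UMIs in 990 KO-labelled cells (14.9%), so that library is called KO-labelled here.

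Cells were grouped by receptor gene transcripts. In WT these were 520 cells with Tcrg-V6 as the only Tcrg-V gene and 410 cells with only Tcrg-V4. In the KO-labelled library they were 2880 cells with Tcrg-V1 and 1499 cells with a Trav15-dv6 gene. By their symbols, genes of that family serve both α and δ chains, so a UMI alone does not mark a δ chain. The last groups share 797 cells, and 2083 Tcrg-V1 cells had no Trav15-dv6 UMI. Trgv2, a further γ chain gene, was not counted among the Tcrg-V genes. It had UMIs in 158 (30.4%) of the WT Tcrg-V6, 170 (41.5%) of the WT Tcrg-V4 and 1443 (50.1%) of the KO-labelled Tcrg-V1 cells. Tcrg-V4 had 542 UMIs in the 410 WT Tcrg-V4 cells and 837 in 610 (21.2%) of the KO-labelled Tcrg-V1 cells. Tcrg-V6 had 1908 UMIs in the 520 WT Tcrg-V6 cells. Group names therefore stand for transcripts, and how many WT Tcrg-V4 cells carry a Vγ4 chain was not tested. Median depth was 3602 UMIs in WT Tcrg-V6 cells, 3427 in WT Tcrg-V4, 4186 in KO-labelled Tcrg-V1 and 4098 in KO-labelled Trav15-dv6 cells. Levels are given as CPM, the group's UMIs of a gene per 1000000 of its summed UMIs. Intervals are exact 95% intervals that cover counting error only, and cells of a library are not replicates. Summed over 4 αβ T cell markers (Trbc1, Trbc2, Cd4 and Cd8b1), the level was 644 CPM in WT Tcrg-V6 cells, where Cd4 was at 0, 983 in WT Tcrg-V4 cells, 1227 in KO-labelled Tcrg-V1 cells and 1225 in Trav15-dv6 cells. The part of these markers in the results was not tested.

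Il23r was highest in WT Tcrg-V6 cells, at 454 CPM (424 to 484). It was 147 CPM (129 to 167) in WT Tcrg-V4 cells, 88.4 (83.5 to 93.6) in KO-labelled Tcrg-V1 cells and 64.8 (58.9 to 71.0) in KO-labelled Trav15-dv6 cells. Il1r1 followed the same order, at 252 CPM (230.4 to 275) in WT Tcrg-V6, 47.4 (37.3 to 59.4) in WT Tcrg-V4, 32.6 (29.6 to 35.8) in Tcrg-V1 and 22.4 (19.1 to 26.2) in Trav15-dv6 cells. In both genes WT Tcrg-V6 cells stood apart from the other 3 groups.

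Il18r1 had a shallower order, with 278 CPM (255 to 302) in WT Tcrg-V6, 166 (146 to 187) in WT Tcrg-V4, 138 (132 to 145) in Tcrg-V1 and 118 (110.3 to 126) in Trav15-dv6 cells. Its neighbour Il1rl1 had 2, 0 and 12 UMIs in the first 3 of these groups, against 550, 262 and 1871 of Il18r1. A split of reads between these neighbours was not tested. Il7r varied least among the genes with a clear order over all cells of the groups. It ran from 1300.5 CPM (1251 to 1352) in WT Tcrg-V6 through 1180 (1127 to 1235) in WT Tcrg-V4 and 1065 (1048 to 1083) in Tcrg-V1 to 985 (962 to 1008) in Trav15-dv6 cells. That Il7r order was not kept in cells with at least 3 IL-17-type markers, described below. Il18rap had no such order: its levels were 31.3 CPM (24.0 to 40.1), 38.5 (29.5 to 49.5), 32.8 (29.8 to 36.0) and 29.1 (25.3 to 33.4) in the same groups, and all 4 intervals overlapped.

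**Figure D1:**
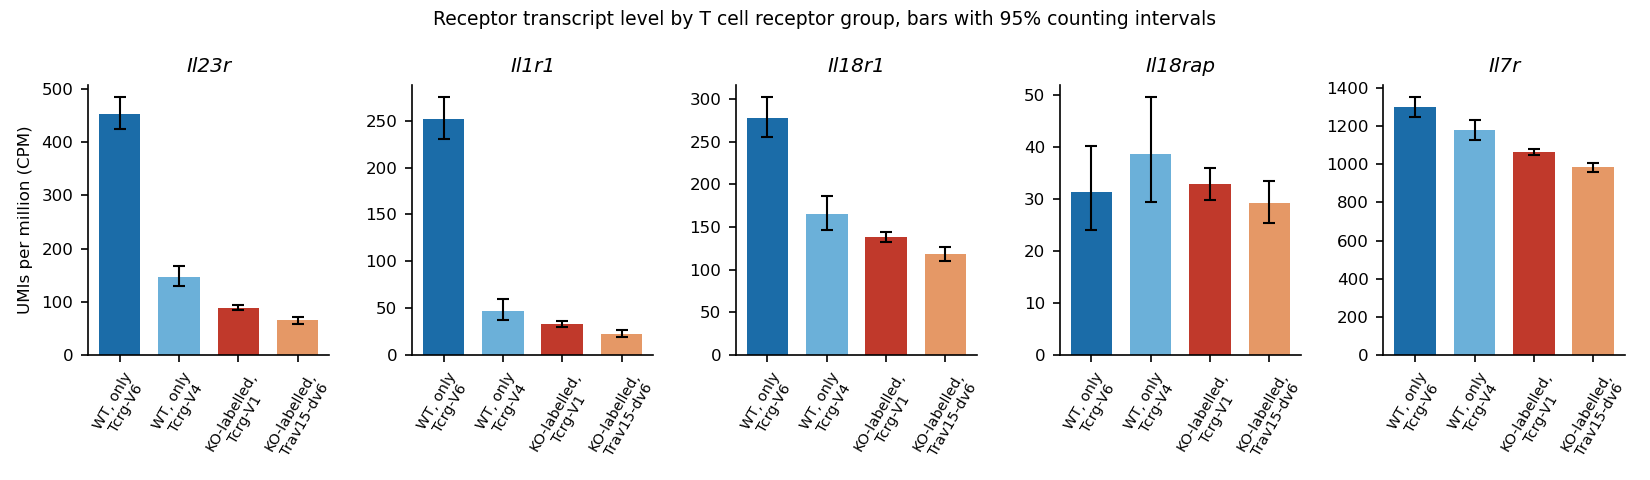
Level of each receptor transcript (y axis in CPM, a separate scale per gene) in WT cells with only Tcrg-V6, WT cells with only Tcrg-V4, KO-labelled cells with Tcrg-V1 and KO-labelled cells with Trav15-dv6; bars are group sums and error bars exact 95% counting intervals. Il23r stands at 454 CPM in WT Tcrg-V6 cells against 88.4 in KO-labelled Tcrg-V1 cells, while Il18rap stays between 29.1 and 38.5 in all 4 groups.

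Neighbours in that order were compared between groups that share no cells, using Tcrg-V1 cells without Trav15-dv6. For Il23r, Il1r1, Il18r1 and Il7r every neighbouring pair differed beyond counting error, although the step in Il1r1 from WT Tcrg-V4 to Tcrg-V1 cells was close to it (log2 ratio 0.40, 0.01 to 0.76). Il18rap had an order of its own, WT Tcrg-V4 above Tcrg-V1 without Trav15-dv6, WT Tcrg-V6 and Trav15-dv6 cells, and none of its neighbours differed beyond counting error. In the KO-labelled library alone, Trav15-dv6 cells, with or without Tcrg-V1, were below Tcrg-V1 cells without Trav15-dv6 in all 5 genes. The log2 ratio was -0.60 (-0.76 to -0.44) for Il23r, -0.68 (-0.97 to -0.41) for Il1r1, -0.26 (-0.39 to -0.14) for Il18r1, -0.28 (-0.54 to -0.02) for Il18rap and -0.14 (-0.18 to -0.09) for Il7r. None was 2-fold lower, where 0.378% of 10836 genes were, and 2 of 5, Il23r and Il1r1, were 1.5-fold lower and none higher, where 2.6% of genes were lower and 2.09% higher. The Il18r1 difference was smaller at equal depth, at -0.076 (-0.27 to 0.12) with 2000 UMIs per cell. Among Tcrg-V1 cells only, the 797 with Trav15-dv6 were also compared with those without. Their ratios were -0.53 (-0.73 to -0.34) for Il23r, -0.51 (-0.84 to -0.20) for Il1r1, -0.37 (-0.69 to -0.06) for Il18rap and -0.07 (-0.13 to -0.02) for Il7r. For Il18r1 the interval held 0, at -0.12 (-0.26 to 0.02). In the 375 cells with only Tcrg-V1 and Trav15-dv6 as the only δ gene class, Il18r1 was not lower. It was 149 CPM (132 to 169), against 142 (134 to 150) in Tcrg-V1 cells without Trav15-dv6. The other receptors were lower there with overlapping intervals: Il23r 82.9 against 98.1, Il1r1 31.3 against 36.0, Il18rap 34.2 against 35.4 and Il7r 1044 against 1083.

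KO-labelled Tcrg-V1 cells against WT Tcrg-V6 cells gave a log2 ratio of -2.36 (-2.48 to -2.23) for Il23r and -2.95 (-3.14 to -2.76) for Il1r1, so that levels were 5.13 and 7.74 times lower. The ratio was -1.01 (-1.14 to -0.87) for Il18r1, -0.29 (-0.35 to -0.23) for Il7r and 0.07 (-0.32 to 0.47) for Il18rap. Thus 3 of the 5 receptors were at least 2-fold lower, where 6.76% of 10780 genes with at least 30 UMIs were. Il18r1 was close to that limit and under 2-fold in 7 of 13 alternatives, the smallest being -0.89 in cells from 2000 to under 6000 UMIs, which leaves 2 of 5. The same 3 and no other passed a 1.5-fold limit, as 13.5% of genes did downwards and 21.8% upwards. The median of all those genes was 0.10. All 5 receptors passed this minimum of UMIs in each comparison.

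Against WT Tcrg-V4 cells, KO-labelled Tcrg-V1 cells differed less, with log2 ratios of -0.73 (-0.94 to -0.53) for Il23r, -0.54 (-0.90 to -0.17) for Il1r1, -0.26 (-0.45 to -0.07) for Il18r1, -0.23 (-0.62 to 0.18) for Il18rap and -0.15 (-0.22 to -0.08) for Il7r. None of the 5 was 2-fold lower, where 3.89% of 10754 genes were, and at 1.5-fold 1 of 5, Il23r, was lower and none higher, against 9.47% and 13.2% of genes. With at least 2 UMIs required of the gene that defines a group, the Il18r1 ratio was 0.24 (-0.14 to 0.65), with an interval that held 0, as did Il1r1 at -0.60 (-1.19 to 0.054). In cells with Xist and no Y-linked UMI, intervals held 0 for all 5 receptors, among them Il23r at -0.37 (-0.76 to 0.033), Il1r1 at -0.16 (-0.83 to 0.59), Il18r1 at 0.15 (-0.22 to 0.53) and Il7r at -0.011 (-0.14 to 0.12). Within the WT library, Tcrg-V6 cells exceeded Tcrg-V4 cells by 1.62 (1.41 to 1.84) for Il23r, 2.41 (2.06 to 2.78) for Il1r1, 0.75 (0.53 to 0.97) for Il18r1 and 0.14 (0.05 to 0.23) for Il7r, against -0.30 (-0.83 to 0.23) for Il18rap. Of the 5 receptors 2 were at least 2-fold higher, where 5.15% of 8133 genes were, and none 2-fold lower, where 5.29% were. At 1.5-fold 3 of 5 were higher and none lower, against 11.9% and 12.3% of genes.

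How many cells had a UMI of each receptor was counted at an equal depth of 2000 UMIs drawn per cell. Shallower cells, 37, 25, 127 and 92 in the 4 groups, could not be drawn and were left out. Il23r was found in 50.9% (46.4 to 55.5) of WT Tcrg-V6, 24.7% (20.4 to 29.3) of WT Tcrg-V4, 11.5% (10.3 to 12.8) of Tcrg-V1 and 8.10% (6.73 to 9.65) of Trav15-dv6 cells. Without thinning these shares were 65.6%, 32.9%, 18.4% and 13.9%. Il1r1 was found in 37.5%, 7.27%, 4.98% and 2.77% of thinned cells, Il18r1 in 40.2%, 26.2%, 20.4% and 18.6%, Il18rap in 6.00%, 5.19%, 6.07% and 5.40%, and Il7r in 87.4%, 77.4%, 74.5% and 71.9%. None of the 5 receptors was found in 3.52% of WT Tcrg-V6 cells, compared with 18.2% of WT Tcrg-V4, 21% of Tcrg-V1 and 23.7% of Trav15-dv6 cells.

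Free RNA was gauged in 90 cells, 60 WT and 30 KO-labelled, that carried at least 2 myeloid or B cell markers and no T cell transcript (median 2476 UMIs). None of them had a UMI of Il23r, Il18r1 or Il18rap, which over the 57 cells of sufficient depth allows a share of up to 5.26%. Il1r1 and Il7r each had a UMI in 2 of these 57 thinned cells, or 3.51% (0.428 to 12.1). For Il1r1 both were among the 40 thinned WT cells, with up to 3 UMIs in a cell before thinning. None was among the 17 KO-labelled ones. Whether these Il1r1 UMIs were free RNA or the cells' own was not tested. The Il1r1 share of Trav15-dv6 cells lies below that value and the Il1r1 share of Tcrg-V1 cells within its interval, as does that of WT Tcrg-V4 cells at 7.27%. The Il18rap shares, 5.19% to 6.07%, lie around the limit of 5.26%. By these 57 cells alone, none of these is told from background by share. For Il1r1 in the KO-labelled groups they cannot decide it, because that value comes from WT cells. Lower shares were found in other thinned cells of the KO-labelled library. Il1r1 was in 0.276% (0.126 to 0.523) of 3260 cells with none of the 8 IL-17-type markers listed below. Il18rap was in 1.14% (0.460 to 2.33) of 614 cells with a Cd8b1 UMI. Of 53 such WT cells 9.43% (3.13 to 20.7) had it, so this split gives no lower value for the WT groups.

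Depth per cell changed the comparison with WT Tcrg-V4 cells. In that group Il23r was 450 CPM in 25 cells of under 2000 UMIs, 212 from 2000 to under 4000, 99.1 from 4000 to under 6000 and 37.4 at 6000 or more. Il1r1 and Il18r1 were lower bin by bin, from 99.99 to 13.4 CPM and from 325 to 53.5 CPM, while Il18rap was 125 CPM (40.6 to 292) from 5 UMIs in the shallowest bin and 33.1, 43.5 and 34.8 CPM in the deeper bins.

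WT Tcrg-V6 cells held their level better, at 909, 421, 509 and 366 CPM of Il23r from the shallowest to the deepest bin. KO-labelled Tcrg-V1 cells had 313, 57.8, 111 and 83.4 CPM. The log2 ratio of Tcrg-V1 to WT Tcrg-V6 cells was therefore below 0 in each bin, at -1.54, -2.87, -2.20 and -2.13 for Il23r, and likewise below 0 in each bin for Il1r1 and Il18r1. For Il18r1 the interval held 0 in the shallowest bin, at -0.77 (-1.57 to 0.06).

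Against WT Tcrg-V4 cells the direction of Il23r and Il18r1 turned with depth, and that of Il1r1 turned only within counting error. The Il23r log2 ratio was -0.53 (-1.31 to 0.33), -1.87 (-2.18 to -1.57), 0.16 (-0.30 to 0.66) and 1.16 (0.39 to 2.04) from the shallowest to the deepest bin. Il18r1 gave -0.54 (-1.47 to 0.49), -0.80 (-1.05 to -0.53), 0.14 (-0.23 to 0.53) and 1.12 (0.48 to 1.84). Il1r1 gave -0.08 (-1.69 to 1.95), -1.33 (-1.82 to -0.82), 0.22 (-0.56 to 1.12) and 1.07 (-0.18 to 2.72), the last from 5 UMIs in WT Tcrg-V4 cells. Il7r gave 0.49 (-0.019 to 1.04), -0.49, 0.20 and 0.39, with no single direction over the bins.

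Other values moved with depth in WT Tcrg-V4 cells. The share with at least 3 of 8 IL-17-type markers was 34.3%, 19.1% and 8.33% in the bins from 2000, 4000 and 6000 UMIs, and the share with at least 3 of 8 type 1 markers 16.5%, 36.0% and 33.3%. Summed myeloid markers were 172, 181 and 1502 CPM, and B cell markers 58.2, 9.67 and 225 CPM, so the 48 deepest cells stood apart. In Tcrg-V1 cells the myeloid sum was 155, 165 and 231 CPM. The part of these transcripts in the depth pattern was not tested.

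**Figure D2:**
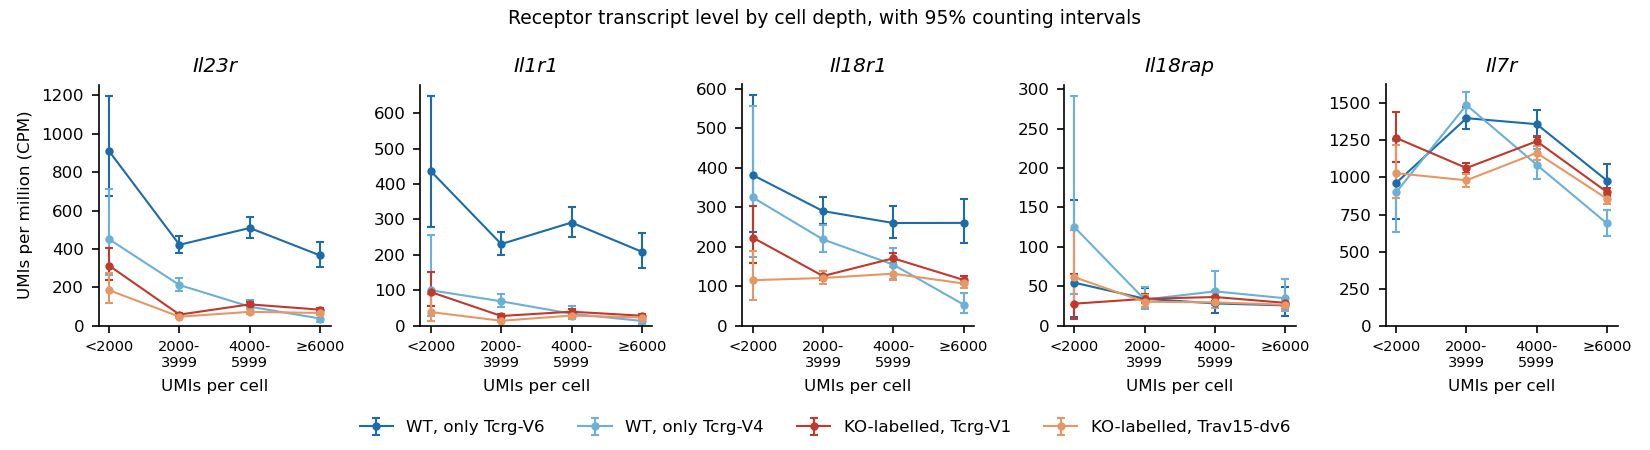
Level of each receptor (y axis, CPM) in 4 bins of UMIs per cell (x axis) for the 4 T cell receptor groups; points are group sums and error bars exact 95% counting intervals. The WT Tcrg-V4 line for Il23r runs from 450 to 37.4 CPM and crosses the KO-labelled lines, while the WT Tcrg-V6 line stays above all others.

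To set receptors against the state of the cell, each thinned cell was scored by how many of 8 IL-17-type markers had a UMI (Il17a, Blk, Sox13, Maf, Ccr2, Ccr6, Icos, S100a4), and likewise for 8 type 1 markers (Cd27, Tbx21, Eomes, Ifng, Klrd1, Klrk1, Nkg7, Il2rb). No receptor is on either list, and the counts are ranges, not cell types. Of WT cells 31.2% had no IL-17-type marker and 18.3% had at least 4, compared with 56.1% and 3.86% of KO-labelled cells.

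Il23r was nearly confined to marked cells. Among KO-labelled cells it was found in 0.215% (0.0864 to 0.442) of those with no IL-17-type marker, 4.60% with 1, 24.0% with 2, 36.8% with 3 and 41.1% (34.6 to 47.8) with at least 4. Among WT cells the shares were 2.11% (1.16 to 3.52), 18.2%, 41.6%, 42.1% and 50% (44.9 to 55.1). At equal marker number the KO-labelled share was below the WT share with up to 2 markers, and the intervals overlapped from 3 markers on.

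Il1r1 was found in 0.276%, 1.70%, 8.91%, 15.3% and 21% of KO-labelled cells with 0, 1, 2, 3 and at least 4 IL-17-type markers. In WT cells the shares were 1.51%, 8.96%, 21%, 31.5% and 35.1%. Here the KO-labelled share stayed below the WT share at every marker number, at 21% (15.8 to 26.9) against 35.1% (30.3 to 40.0) in the most marked cells.

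Il18r1 was present in more unmarked cells, at 8.07% of KO-labelled and 6.34% of WT cells with no IL-17-type marker, and reached 42.9% and 41.0% with at least 4. The libraries had overlapping intervals at 0, 1, 2, 3 and at least 4 markers, a description that does not show equality. Il7r went from 65.3% to 92.0% in KO-labelled and from 60.7% to 90.2% in WT cells. Il18rap stayed between 3.97% and 9.05% at all marker numbers in both libraries.

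Cells with at least 4 type 1 markers had lower shares of Il23r and Il1r1, and higher shares of Il18rap, than cells with none. Il18rap was found in 2.94% (1.85 to 4.41) of KO-labelled cells with no type 1 marker and 14.7% (11.5 to 18.4) with at least 4, and in 1.86% (0.606 to 4.28) and 22.2% (15.5 to 30.2) of WT cells. Il23r was found in 1.42% and 1.48% of KO-labelled and WT cells with at least 4 type 1 markers, and Il1r1 in 0.474% and 0.741%. Il7r differed between libraries there, at 69.2% (64.5 to 73.6) of KO-labelled and 48.1% (39.5 to 56.9) of WT cells. Il18r1 was found in 17.6% of KO-labelled cells with no type 1 marker and 17.8% with at least 4, and in 24.9% and 10.4% of WT cells.

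**Figure D3:**
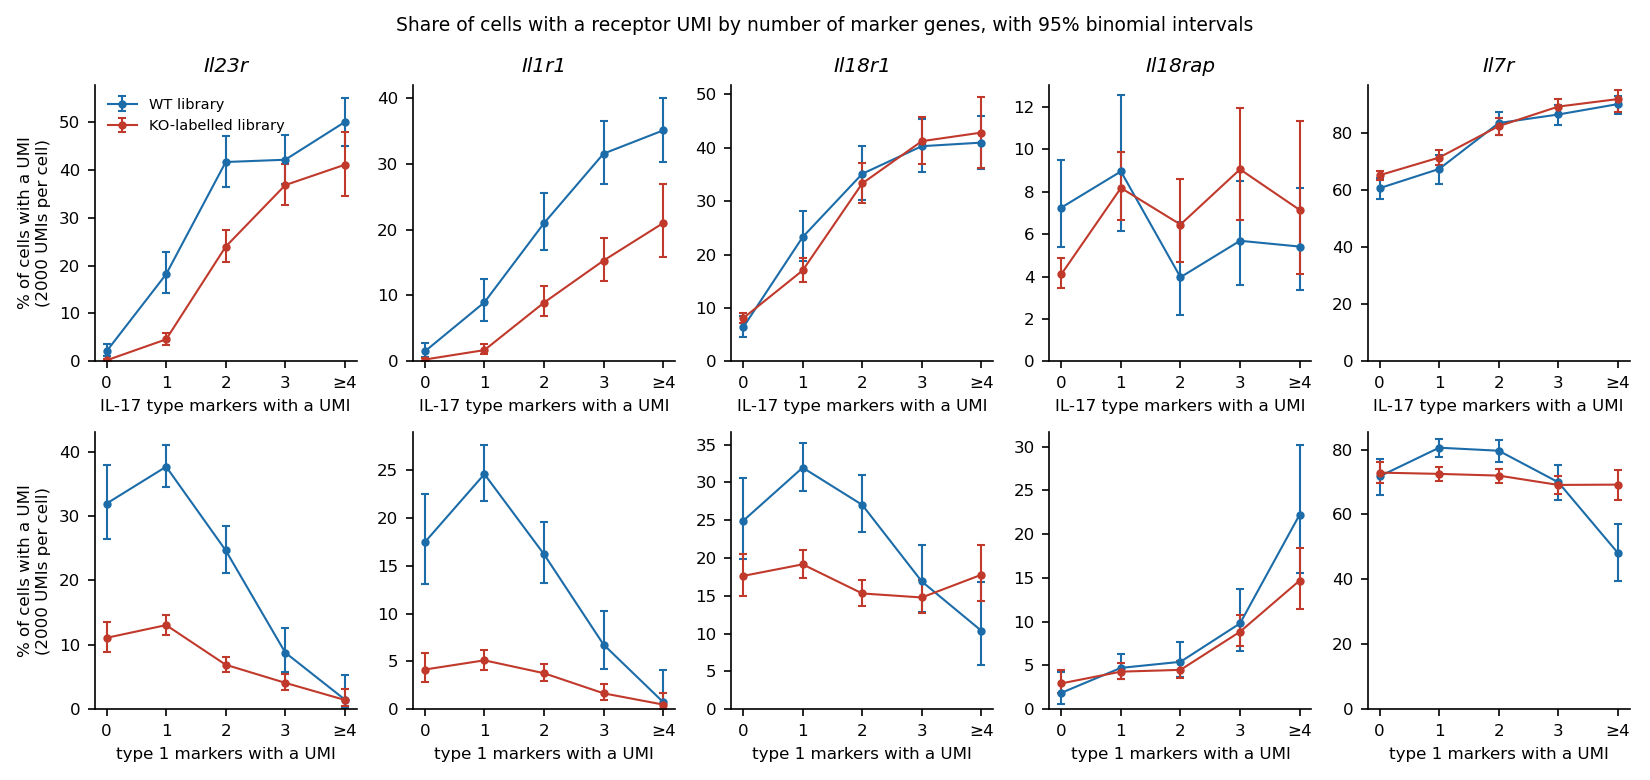
Share of cells with a receptor UMI after thinning to 2000 UMIs per cell (y axis, percent, a separate scale per panel) by the number of IL-17-type markers (upper row) or type 1 markers (lower row) with a UMI, for the WT and the KO-labelled library; error bars are exact 95% binomial intervals. Il23r climbs from 0.215% to 41.1% of KO-labelled cells along the IL-17-type count, and Il18rap from 2.94% to 14.7% along the type 1 count.

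Cells with at least 3 IL-17-type markers made up 68.1% of WT Tcrg-V6, 27.5% of WT Tcrg-V4, 17.7% of Tcrg-V1 and 12.8% of Trav15-dv6 cells. Many cells lay near this limit, with 49.5%, 32.2%, 26.1% and 21.7% of the groups at exactly 2 or 3 markers. Within the marked cells Il23r was 475 CPM in WT Tcrg-V6, 247 in WT Tcrg-V4, 280.1 in Tcrg-V1 and 259 in Trav15-dv6 cells. Il1r1 was 279, 126, 115 and 97.2 CPM in the same groups.

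Restricting the comparison to marked cells therefore left different gaps for different receptors. The log2 ratio of Tcrg-V1 to WT Tcrg-V6 cells was -0.76 (-0.92 to -0.60) for Il23r and -1.28 (-1.51 to -1.05) for Il1r1, against -0.01 (-0.19 to 0.17) for Il18r1 and 0.29 (-0.25 to 0.86) for Il18rap. For Il7r it was 0.30 (0.22 to 0.38), the opposite sign from all cells. Against WT Tcrg-V4 cells the intervals held 0 for Il23r at 0.18 (-0.13 to 0.51), Il1r1 at -0.13 (-0.58 to 0.35), Il18r1 at 0.14 (-0.16 to 0.46) and Il18rap at 0.86 (-0.17 to 2.12), while Il7r was lower at -0.29 (-0.40 to -0.17). The Il18rap ratio depended on the number of markers, at 0.96 (0.15 to 1.90) with at least 2 and -0.11 (-1.36 to 1.34) with at least 4. In WT Tcrg-V4 cells these ratios rest on 106 marked cells. Within the WT library, Il7r in marked cells was 1336 CPM in Tcrg-V6 and 2010 in Tcrg-V4 cells. This is a log2 ratio of -0.59 (-0.71 to -0.46), again the opposite sign from all cells.

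**Figure D4:**
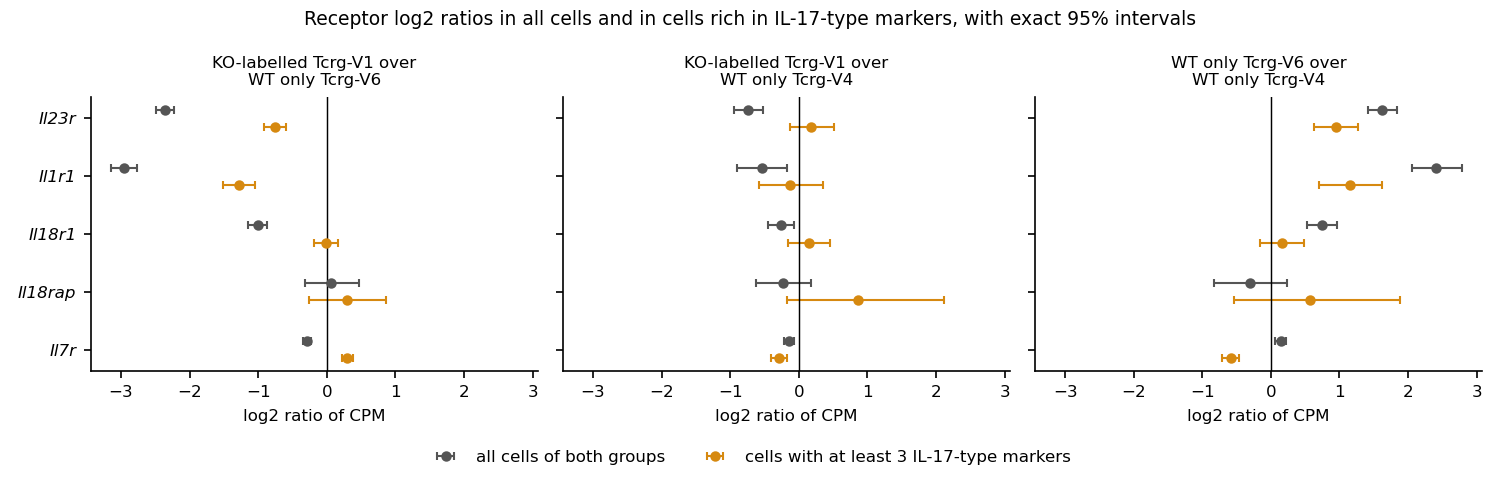
Log2 ratio of CPM for each receptor (x axis) in 3 comparisons, for all cells of the groups and for cells with at least 3 IL-17-type markers; points are ratios of group sums and bars exact 95% intervals. The Il23r ratio of KO-labelled Tcrg-V1 to WT Tcrg-V6 cells is -2.36 in all cells and -0.76 in marked cells, and the Il18r1 ratio -1.01 and -0.01.

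Cells with a UMI of Il17a itself had like Il23r shares in the libraries, at 46.5% (36.5 to 56.7) of 101 KO-labelled and 47.6% (42.4 to 52.9) of 361 WT cells. Il1r1 was found in 20.8% (13.4 to 30.01) and 32.7% (27.9 to 37.8) of them, and Il18r1 in 36.6% and 38.0%. In cells with an Ifng UMI, encoding interferon-γ, Il18rap was found in 17.7% (12.9 to 23.4) of 220 KO-labelled and 16.1% (7.62 to 28.3) of 56 WT cells, against 5.26% and 6.09% of cells without it. Cells with Ly6c2, a surface protein of memory-type T cells, had Il23r in 1.0% of 1294 KO-labelled and 1.09% of 366 WT cells, and Il18rap in 11.1% and 11.5%. Cells with Cd24a, which marks immature T cells, were low in all receptors: of 511 in the KO-labelled library, 1.37% had Il23r, 0.978% Il1r1, 5.48% Il18r1, 1.37% Il18rap and 54.6% Il7r.

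Receptors were also counted pairwise in the same thinned cell. Among KO-labelled Tcrg-V1 cells Il1r1 was found in 19.6% (15.3 to 24.4) of cells with Il23r and 3.08% (2.43 to 3.84) of cells without it. In WT Tcrg-V4 cells these shares were 13.7% (7.49 to 22.3) and 5.17% (2.92 to 8.39), and in WT Tcrg-V6 cells 43.9% (37.6 to 50.3) and 30.8% (25.0 to 37.1). The shares with and without Il23r lay closest together, as a ratio, in WT Tcrg-V6 cells, where both genes were most common.

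Il23r and Il18r1 shared cells in Tcrg-V1 cells, with Il18r1 in 37.2% of cells with Il23r and 18.2% without, and in WT Tcrg-V4 cells, at 51.6% and 17.9%. In WT Tcrg-V6 cells the shares were 44.7% (38.4 to 51.2) and 35.4% (29.4 to 41.9). Il18rap was read in few cells, but in the KO-labelled groups more often in cells with Il18r1, the other IL-18 receptor chain. It was in 9.09% (6.84 to 11.8) of Tcrg-V1 cells with Il18r1 and 5.29% (4.39 to 6.31) without. In Trav15-dv6 cells the shares were 9.92% (6.59 to 14.2) and 4.37% (3.26 to 5.72). WT Tcrg-V6 cells had 6.19% and 5.88%, and WT Tcrg-V4 cells 3.96% and 5.63%. Il7r went with Il23r in WT Tcrg-V4 cells, at 95.8% and 71.4%, but not in WT Tcrg-V6 cells, at 87.4% and 87.3%.

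Splitting both libraries by γ and δ gene gave 33 groups of at least 50 cells. Il23r was highest in WT cells with Trdv4, the δ gene that pairs with Vγ6: 459 CPM in 448 cells that also had Tcrg-V6 and 840.4 (703 to 997) in 62 cells with no Tcrg-V UMI, whose median depth was 2390 UMIs. It was lowest in KO-labelled cells with Trdv1 and no Tcrg-V gene, at 18.7 CPM (11.7 to 28.3), and was 39.6 (27.1 to 55.8) in those with Trdv1 and Tcrg-V1. Among KO-labelled Tcrg-V1 cells, those with Trdv2-2 had 128 CPM (109 to 150) of Il23r, those with Trav15-dv6 as the only δ gene class 82.9 (69.8 to 97.6) and those with Trdv5 65.6 (47.9 to 87.8). The 304 with several δ gene classes had 35.3 (27.0 to 45.2). In WT Tcrg-V4 cells Trdv5 went with 190 CPM (152 to 234) and Trdv2-2 with 184 (139 to 240).

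Across these 33 groups Il23r and Il1r1 had a Pearson correlation of 0.95 on log2(CPM + 10), Il23r and Il18r1 0.90, and Il1r1 and Il18r1 0.86. Il18rap correlated with Il18r1 at 0.53 and with Il7r at 0.27. Groups of 1 library share depth and preparation and are not replicates, so these values carry no p. Of 8958 genes compared, Ikzf3 (0.95), Slc38a1 (0.95), Il1r1 (0.95), Prelid2 (0.94) and Dgat1 (0.94) were most like Il23r, and Il23r, Slc38a1, Slc16a6, Smap2 and 1700012B07Rik (0.92 to 0.95) most like Il1r1.

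Il18r1 was most like Cd82, Txnrd1, Ahnak, Prelid2 and Il23r (0.90 to 0.91). Among the genes most like Il18rap were Serpinb9, Inpp5d, Aplp2 and M6pr, at lower values of 0.68 to 0.74. Serpinb9 encodes an inhibitor of granzyme B. Il7r was most like Sdc1, Sub1, S100a6, Glrx and Eif4e3 (0.82 to 0.90), where Sdc1 encodes the surface proteoglycan syndecan-1.

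**Figure D5:**
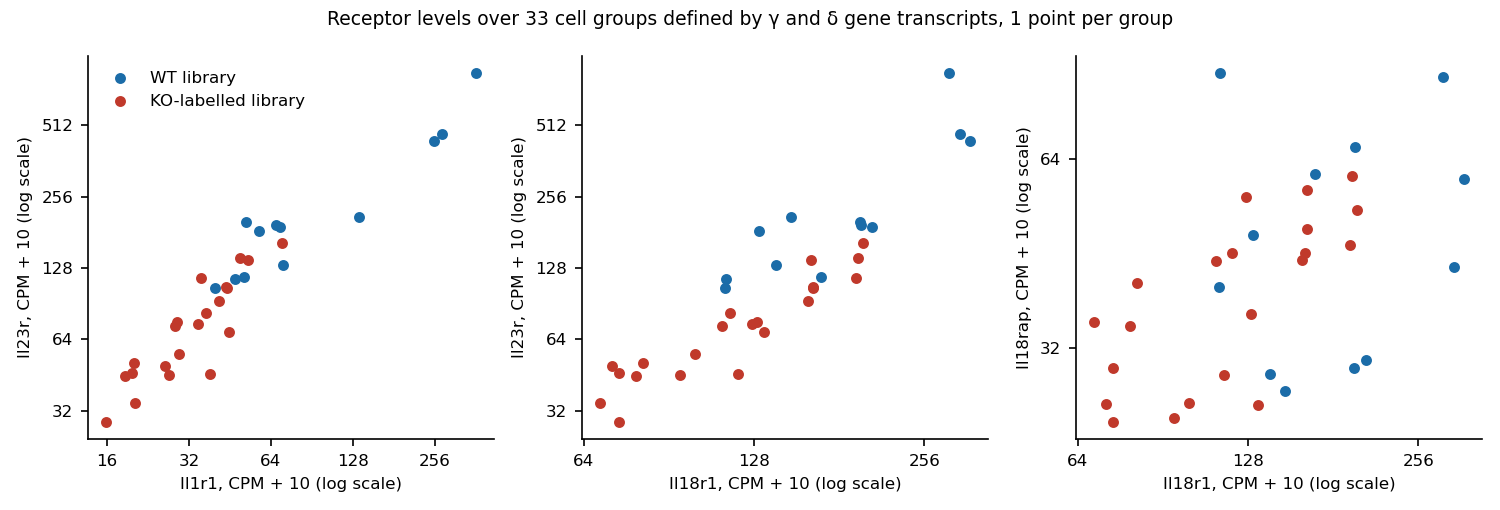
Levels of receptor pairs (CPM + 10, log scales) over 33 cell groups defined by library, γ gene and δ gene, 1 point per group. Il23r and Il1r1 lie along 1 line (r = 0.95), and Il18r1 and Il18rap scatter (r = 0.53).

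Partner chains did not follow one rule. Il12rb1, which pairs with Il23r, was 33.8 CPM in WT Tcrg-V6, 12.6 in Tcrg-V1 and 4.42 in WT Tcrg-V4 cells, the last from 7 UMIs. Its log2 ratio of Tcrg-V1 to WT Tcrg-V6 cells was -1.43 (-1.85 to -1.0), and to WT Tcrg-V4 cells 1.51 (0.43 to 2.84). Il12rb2, which pairs with Il12rb1 in the IL-12 receptor and lies beside Il23r on chromosome 6, was opposite, at 16.2, 105 and 98.5 CPM.

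Within the KO-labelled library Il12rb1 was 34.2 CPM in cells with at least 3 IL-17-type markers and 2.20 in cells with none, a log2 ratio of 3.96 (3.36 to 4.60), and Il12rb2 was 19.8 and 134 CPM, a ratio of -2.76 (-3.14 to -2.41). In WT cells the ratios were 3.61 (2.51 to 4.96) and -4.23 (-4.86 to -3.66). Among marked cells Il12rb1 was 37.4 CPM in Tcrg-V1 and 40.5 in WT Tcrg-V6 cells, a ratio of -0.11 (-0.62 to 0.41). Il1rap, the IL-1 receptor partner, was 13.1, 15.2 and 10.4 CPM in WT Tcrg-V6, WT Tcrg-V4 and Tcrg-V1 cells, with intervals of the ratios that held 0. Il2rg, the common γ chain, was 1078, 884 and 932 CPM, and Crlf2, which pairs with Il7r in the receptor of TSLP, 79.3, 50.5 and 70.2 CPM.

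Of 46 genes on 8 lists of the same pathways, 36 had at least 30 UMIs in the comparison of Tcrg-V1 with WT Tcrg-V6 cells, and 5 were at least 2-fold higher and 6 lower. Over all genes 11.4% were higher and 6.76% lower, and the median of the 36 was -0.11 against 0.10. None of the 10 kinases and adaptors, from Jak1 to Traf6, was past 2-fold. Among transcription factors Stat5a at 1.69 (1.40 to 1.99) and Stat5b at 1.26 (1.05 to 1.47), which act below the IL-7 receptor, were higher, and Nfkb1, an NF-κB subunit, was lower at -1.29 (-1.41 to -1.17). Of the response genes Cish, a feedback inhibitor that STAT5 induces, was lower at -1.61 (-1.76 to -1.47).

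Effector cytokines were lower for Il17a at -3.77, Il17f at -3.35 and Il22 at -5.58, the last from 10 UMIs in Tcrg-V1 cells, and higher for Ifng at 1.21 (0.40 to 2.14). Il1rl2, the IL-36 receptor chain, had 55 UMIs in Tcrg-V1 and 1 in WT Tcrg-V6 cells (log2 ratio 3.01, 0.47 to 8.34). Decoys and inhibitors had no member past 2-fold of 2 tested, Sigirr and Tollip. Ligand genes were barely read, and of 6 only Il1b was tested.

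Against WT Tcrg-V4 cells, 1 of 36 pathway genes, Il12rb1, was at least 2-fold higher and 4 were lower, where 5.28% and 3.89% of all genes were. These were Il17a at -2.65, Il17f at -5.10, Il22 at -4.30 and Il1b at -3.39, and Il1b, a myeloid cytokine, had 49 UMIs in WT Tcrg-V4 cells. Summed myeloid markers were 487 CPM in that group, with 7 of 9 present, 302 in WT Tcrg-V6 with 5 of 9 and 186 in Tcrg-V1 cells with 8 of 9, and their part in the Il1b value was not tested.

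Within the WT library, 4 of 34 pathway genes were higher in Tcrg-V6 than Tcrg-V4 cells, Il12rb1 at 2.94, Cish at 1.32, Il17a at 1.12 and Il22 at 1.28. Lower were 4, Il12rb2 at -2.61, Il17f at -1.75, Il1b at -3.35 and Ifng at -1.48. Of all genes 5.15% were higher and 5.29% lower. Within the KO-labelled library none of 35 was past 2-fold between Trav15-dv6 cells and Tcrg-V1 cells without Trav15-dv6, where 0.489% of 10836 genes were higher and 0.378% lower.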

How the data were processed

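The 2 single-cell libraries of sorted mouse lung γδ T cells were used. The authors deposited, per library, a matrix of UMI counts per gene and cell barcode, not normalised. Per the labels it was made with Cell Ranger 7.0 on mm10, and the file headers give 7.0.0. The labels name a 3′ protocol, whereas in the methods a V(D)J kit and an earlier Cell Ranger release appear. Intron reads, strand and annotation release: not given in the sources used here. Coordinates came from GENCODE M21 and promoters from RefSeq (5 of 5 genes matched, 8 windows).

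Python 3.11.15, numpy 2.4.6, scipy 1.17.1, pandas 2.3.3 and matplotlib 3.10.9 were used. Depth after the filter was 8971636 UMIs in WT and 25908306 in KO-labelled cells. With 1 library per group no test was possible. Ratios carry exact conditional intervals, levels exact Poisson intervals and shares exact Clopper-Pearson intervals, all at 95% and for counting error only. For a count of 0 the limit is 3 counts. Thinning used seed 1, and 380 WT and 828 KO-labelled cells were under 2000 UMIs. Ratio and thinning steps were tested on simulated data. No doublet caller was run, and leaving out the deepest 5% of cells was tried instead.

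The receptors, gene lists and marker lists were chosen with earlier results of these data known. Named genes are the 5 receptors, the partner chains, genes of the lists past 2-fold with at least 30 UMIs, and the 5 genes most like each receptor by Pearson r over groups of at least 50 cells, among genes with at least 200 UMIs. Of the latter, 1 gene is not reported here. Leaving Trgv2 out of the Tcrg-V genes, the limit of 3 markers, the single genes used to split cells and the promoter motifs were settled once values were known. The alternatives changed group definition, cell filter, depth, scaling and sex-linked transcripts.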

Additional observations from a re-analysis of the deposited data

Results flagged for a closer look

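Il18rap, the signalling chain of the IL-18 receptor, differed in direction between the libraries along the IL-17-type marker count. In WT cells with at least 3 markers against cells with none the log2 ratio was -0.37 (-0.78 to 0.03), and in KO-labelled cells 0.80 (0.49 to 1.11). With 1 library each, the difference was not tested. In CPM the levels were 31.9 and 41.3 in WT, and 37.8 and 21.7 in KO-labelled cells, so the libraries differed mainly in the cells without IL-17-type markers.

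Cells outside the labelled groups also carried receptor transcripts. WT cells with Tcrg-V1 as the only Tcrg-V gene made up 3.35% (2.68 to 4.13) of a library sorted against that chain. In these 84 cells Il23r was 72.7 CPM (46.6 to 108) and Il1r1 36.3 (18.8 to 63.5), against 88.4 and 32.6 CPM in KO-labelled Tcrg-V1 cells, with log2 ratios of -0.28 (-0.93 to 0.30) and 0.16 (-0.81 to 0.98). Il7r was lower, at -0.36 (-0.53 to -0.18). KO-labelled cells with only Tcrg-V4 made up 5.49% (4.95 to 6.06) of a library whose strain is labelled as lacking Vγ4. In these 364 cells Il23r was 76.7 CPM (63.1 to 92.4), below the 147 CPM of WT cells with only Tcrg-V4, and its log2 ratio to KO-labelled Tcrg-V1 cells was -0.21 (-0.50 to 0.08).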

How the results depend on the processing

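No paired analysis was possible because WT and KO rest on 1 library each. Of 260 recomputed receptor ratios (20 ratios under 13 alternatives), 216 stayed within the counting interval, 42 moved further and 2, both Il18r1 over WT Tcrg-V4, turned direction from a ratio whose interval excluded 0. Il18rap ratios, whose intervals held 0, also changed sign, in 3 of 13 over WT Tcrg-V6, 1 over WT Tcrg-V4 and 1 for WT Tcrg-V6 over Tcrg-V4. Il23r, Il1r1, Il18r1 and Il7r stayed below 0 for Tcrg-V1 over WT Tcrg-V6 cells in 13 of 13, at -2.53 to -2.20, -3.10 to -2.82, -1.12 to -0.89 and -0.47 to -0.21. The cause of each shift below was not tested.

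With at least 2 UMIs of the defining gene, Il18r1 turned to 0.24 for Tcrg-V1 over WT Tcrg-V4. Il23r was -2.20 over WT Tcrg-V6 and -0.45 over WT Tcrg-V4, and Il18r1 1.16 for WT Tcrg-V6 over Tcrg-V4. Trav15-dv6 cells over Tcrg-V1 cells without Trav15-dv6 gave -1.0 for Il23r, -0.66 for Il18r1 and -0.29 for Il7r. In cells with Xist and no Y-linked UMI, Il18r1 turned to 0.15 over WT Tcrg-V4, and Il23r, Il1r1 and Il7r were -0.37, -0.16 and -0.011. Over WT Tcrg-V6 these cells gave -2.53 for Il23r, 0.66 for Il18rap and -0.47 for Il7r, and for WT Tcrg-V6 over Tcrg-V4 2.15, 2.89, 1.12, -1.11 and 0.46 for Il23r, Il1r1, Il18r1, Il18rap and Il7r.

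Thinned to 2000 UMIs, Tcrg-V1 over WT Tcrg-V4 gave -1.03 for Il23r, -0.45 for Il18r1, 0.27 for Il18rap and -0.28 for Il7r. At that depth WT Tcrg-V6 over Tcrg-V4 gave 1.41 for Il23r and 0.043 for Il7r, and Trav15-dv6 cells over Tcrg-V1 cells without Trav15-dv6 -1.11 for Il1r1 and -0.076 for Il18r1. In cells from 2000 to under 6000 UMIs Il23r was -0.99 over WT Tcrg-V4, and WT Tcrg-V6 over Tcrg-V4 was 1.41 for Il23r, 0.51 for Il18r1 and 0.040 for Il7r. By mean CPM over cells, Il23r was -1.0 and Il18r1 -0.47 over WT Tcrg-V4, and Il23r 1.40 for WT Tcrg-V6 over Tcrg-V4. With only Tcrg-V1, Il23r was -2.50 and Il7r -0.35 over WT Tcrg-V6, and Il7r -0.058 for Trav15-dv6 cells over Tcrg-V1 cells without Trav15-dv6. With any WT cell carrying the gene, Il1r1 was -1.12 over WT Tcrg-V4, and WT Tcrg-V6 over Tcrg-V4 1.38 for Il23r and 1.78 for Il1r1. A total without TCR, mitochondrial and ribosomal genes gave -0.21 for Il7r over WT Tcrg-V6. Without WT cells with a Trgv2 UMI, Il18r1 was -0.46 and Il7r -0.27 over WT Tcrg-V4, and Il7r 0.039 for WT Tcrg-V6 over Tcrg-V4.

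In marked cells, at least 2 markers gave -0.95 for Il23r, -1.55 for Il1r1 and 0.17 for Il7r over WT Tcrg-V6, -0.19 for Il23r over WT Tcrg-V4 and -0.43 for Il7r in WT Tcrg-V6 over Tcrg-V4. At least 4 markers gave -0.99 for Il1r1 over WT Tcrg-V6 and -0.66 for Il18rap in WT Tcrg-V6 over Tcrg-V4. At 1.5-fold, 9, 5, 9 and 1 pathway genes were higher in the 4 comparisons, where 21.8%, 13.2%, 11.9% and 2.09% of all genes were, and 9, 6, 6 and 0 lower, where 13.5%, 9.47%, 12.3% and 2.6% were. With groups of at least 30 cells, 3, 1, 2 and 3 of the 5 genes most like Il23r, Il1r1, Il18r1 and Il18rap were shared, and with a pseudocount of 1 CPM 3 for Il1r1.

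Limits are 1 library per group, unknown numbers of pooled animals and few UMIs: Il18rap had 62 and 61 UMIs in the WT groups, so its differences were not detectable at this depth below the intervals given.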

Other observations

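Cells without any Tcrg-V transcript, 1094 WT and 3245 KO-labelled, had median depths of 2784 and 3061 UMIs. Il23r was 178 CPM (164 to 193) in the WT and 49.6 (45.4 to 54.1) in the KO-labelled cells of this kind, Il1r1 59.4 and 17.8, Il18r1 138 and 91.9, Il18rap 42.3 and 32.8, and Il7r 884 and 854 CPM.

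Cells with Cd163l1, which encodes a scavenger receptor of IL-17-type γδ T cells, differed between libraries. Il23r was found in 46.7% (43.2 to 50.2) of 806 such WT cells and 15.4% (13.5 to 17.5) of WT cells without it, but in 11.1% (8.71 to 14.0) of 583 KO-labelled cells with it and 8.18% (7.45 to 8.95) without. With 5830411N06Rik the shares were 34.2% (29.9 to 38.7) and 25.3% (23.2 to 27.5) in WT, and 17.3% (15.3 to 19.4) and 5.68% (5.01 to 6.40) in KO-labelled cells. Il1r1 was lower in WT cells with 5830411N06Rik, at 14.1% (11.1 to 17.6), than in those without, at 18.5% (16.6 to 20.4), and higher in KO-labelled ones, at 6.14% (4.94 to 7.53) and 2.81% (2.35 to 3.35). These genes were chosen after their values were seen, and the difference between libraries was not tested.

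The cells of the WT Tcrg-V6 group with no IL-17-type marker numbered 20 after thinning, and 3 of them had Il23r and 4 Il1r1. In KO-labelled Tcrg-V1 cells with no such marker, 4 of 1319 had Il23r and 5 had Il1r1. The most Il23r UMIs in any cell were 16 in WT Tcrg-V6 and 12 in Tcrg-V1 cells.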
